A study of Mus musculus with 22 samples.

Results

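The melanocortin peptides and their receptors were followed as 6 genes, Agrp, Npy, Pomc, Cartpt, Mc3r and Mc4r, out of the 20668 genes of the table of single nuclei. They were chosen by name, 4 as genes of peptide precursors and 2 as genes of receptors, and the rule for them used no measured value. The nuclei came from hypothalamus punches of male ob/ob mice, which lack leptin, at 11 weeks of age, with a single mouse per library. Treatment was 3 µg FGF1 injected once into the cerebral ventricles (icv), or icv vehicle with food matched to that eaten by FGF1 mice (pair-fed), and tissue was taken 24 h later (Day 1, n = 3 FGF1 and 3 vehicle) or on Day 5 (n = 2 and 2). A second cohort of whole cells, from which the study had removed neurons, held 6 FGF1 and 6 vehicle mice on Day 5. Mice are named here by the replicate numbers of the labels. All mice carried the ob/ob genotype, so leptin signaling was absent in FGF1 and vehicle mice alike, and no lean control was among the samples analysed here.

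Neurons of the arcuate nucleus that make agouti-related peptide (the product of Agrp) and neuropeptide Y (Npy) drive feeding, while neighboring neurons that process the Pomc precursor to α-MSH restrain it. The peptides meet at the melanocortin receptors Mc3r and Mc4r, which α-MSH activates and agouti-related peptide blocks. Leptin normally lowers Agrp and Npy and raises Pomc, so ob/ob mice are known for high Agrp and Npy and low Pomc. Cartpt encodes the CART peptide, which some Pomc neurons and other hypothalamic neurons make.

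In the mouse genome build GRCm38, Npy lies on chromosome 6 (49822710 to 49829507, plus strand), Pomc on chromosome 12 (3954951 to 3960642, plus strand), Cartpt on chromosome 13 (99898489 to 99901091, minus strand) and Mc3r on chromosome 2 (172248492 to 172251114, plus strand). The annotated span of Agrp on chromosome 8 (105566698 to 105637393, minus strand) overlaps 7 other annotated genes, Ctcf and Ripor1 among them. RefSeq promoter sequences (GRCm38.p6) matched 4 of the 6 members. The 250 bases upstream of the RefSeq start are shown for 3 peptide genes, 5′ to 3′ on the gene's strand, because each holds a different short motif, set in capitals. They are chr6:49822460-49822709 (plus strand) for Npy, chr12:3954695-3954944 (plus strand) for Pomc and chr13:99900684-99900933 (minus strand) for Cartpt. The gene spans come from GENCODE, whose longest Cartpt transcript starts further upstream, so the Cartpt window lies inside the span given above.
Npy: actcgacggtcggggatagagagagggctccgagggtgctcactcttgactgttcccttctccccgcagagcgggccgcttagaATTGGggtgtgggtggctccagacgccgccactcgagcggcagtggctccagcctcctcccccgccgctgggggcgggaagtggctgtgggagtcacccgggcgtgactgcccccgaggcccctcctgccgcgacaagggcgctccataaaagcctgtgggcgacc
Pomc: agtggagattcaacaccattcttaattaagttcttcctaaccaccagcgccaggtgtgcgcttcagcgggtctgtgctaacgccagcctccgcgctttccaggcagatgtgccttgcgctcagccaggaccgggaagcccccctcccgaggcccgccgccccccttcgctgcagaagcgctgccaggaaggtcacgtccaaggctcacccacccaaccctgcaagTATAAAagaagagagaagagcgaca
Cartpt: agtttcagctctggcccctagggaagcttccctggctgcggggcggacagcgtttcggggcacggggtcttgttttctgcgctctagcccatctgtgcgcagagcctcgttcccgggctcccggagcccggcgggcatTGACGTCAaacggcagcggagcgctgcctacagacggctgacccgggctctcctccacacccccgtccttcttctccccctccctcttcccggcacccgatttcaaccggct
The capitals mark a CCAAT box read on the other strand (ATTGG) in Npy, a TATA box (TATAAA) in Pomc and the full cyclic AMP response element (TGACGTCA) in Cartpt. Searched on both strands, CCAAT was in 33.8% of 32851 promoter windows of that length, TATAAA in 12.4% and TGACGTCA in 1.55%. The motif TTCNNNGAA bound by STAT factors (7.02% of windows) and the FOXO motif GTAAACA (3.17%) were in none of the 4 member windows. The matches describe letters in these windows only.

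The deposited metadata gave 24305 of 24965 nuclei 1 of 36 labels, 28 of them neuronal, and 660 nuclei were marked as filtered. The unmapped label, counted among the neuronal ones and as a type here, held 11986 nuclei and names no cell type. Annotated nuclei per mouse ranged from 581 to 5558 and their summed unique molecular identifiers (UMIs, each one transcript molecule counted at its 3′ end) from 2670746 to 15604648. Levels are given as CPM, the counts of a gene scaled to a common total of UMIs for each mouse and cell type, for mice with at least 10 nuclei of that type. Neuron labels had been transferred from reference datasets and the other labels given to clusters by their marker genes, both from the expression in these nuclei, so a member's level across types is a description and carries no test. Because RNA freed from broken cells enters every droplet, each type was set beside reference nuclei of the same mouse, the pooled astrocytes, tanycytes, ependymal cells, endothelial cells and vascular leptomeningeal cells (VLMC), 2371 nuclei in all. A type was called a source of a peptide where the exact Poisson 95% interval of its level lay above that of the reference nuclei in every mouse, of at least 3, and 29 types had enough mice. These intervals cover counting error only. In the nuclei, 318 of 24645 distinct barcodes occurred in more than 1 library, 23 of them in 2 libraries of the same batch in the deposited metadata. Such sharing is no count of doublets. The study's methods left out the removal of doublets for the nuclei. Neurons that the metadata labels as unmapped are called unmapped neurons here. These are neurons whose match to the reference classes was not confident. The study's text gives fewer nuclei than were deposited.

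Agrp and Npy had the same 2 source types. One was the neurons labelled n13.Agrp/Gm8773 (here Agrp neurons, 341 nuclei), above the reference nuclei in 10 of 10 mice for both genes, with a median ratio to the reference of 54.2 for Agrp and 47.0 for Npy. The other was a GABA neuron class labelled GABA15 (153 nuclei), above the reference in 6 of 6 mice with median ratios of 30.2 and 27.6. The Agrp level was 10800 ± 6220 CPM (SD, n = 10 mice) in Agrp neurons and 6390 ± 3450 (SD, n = 6) in GABA15, and it was higher in Agrp neurons in 6 of 6 mice that held both, although the ranges over mice overlapped. The Npy level was 11900 ± 6540 (SD, n = 10) and 6910 ± 3200 (SD, n = 6), again higher in Agrp neurons in 6 of 6 mice. Of the 153 GABA15 nuclei, 123 had n13.Agrp/Gm8773 as the predicted class in the deposited metadata. The same 2 types were the sources when the reference nuclei were widened, narrowed or cleared of nuclei with 5 or more UMIs of the gene.

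**Figure D1:**
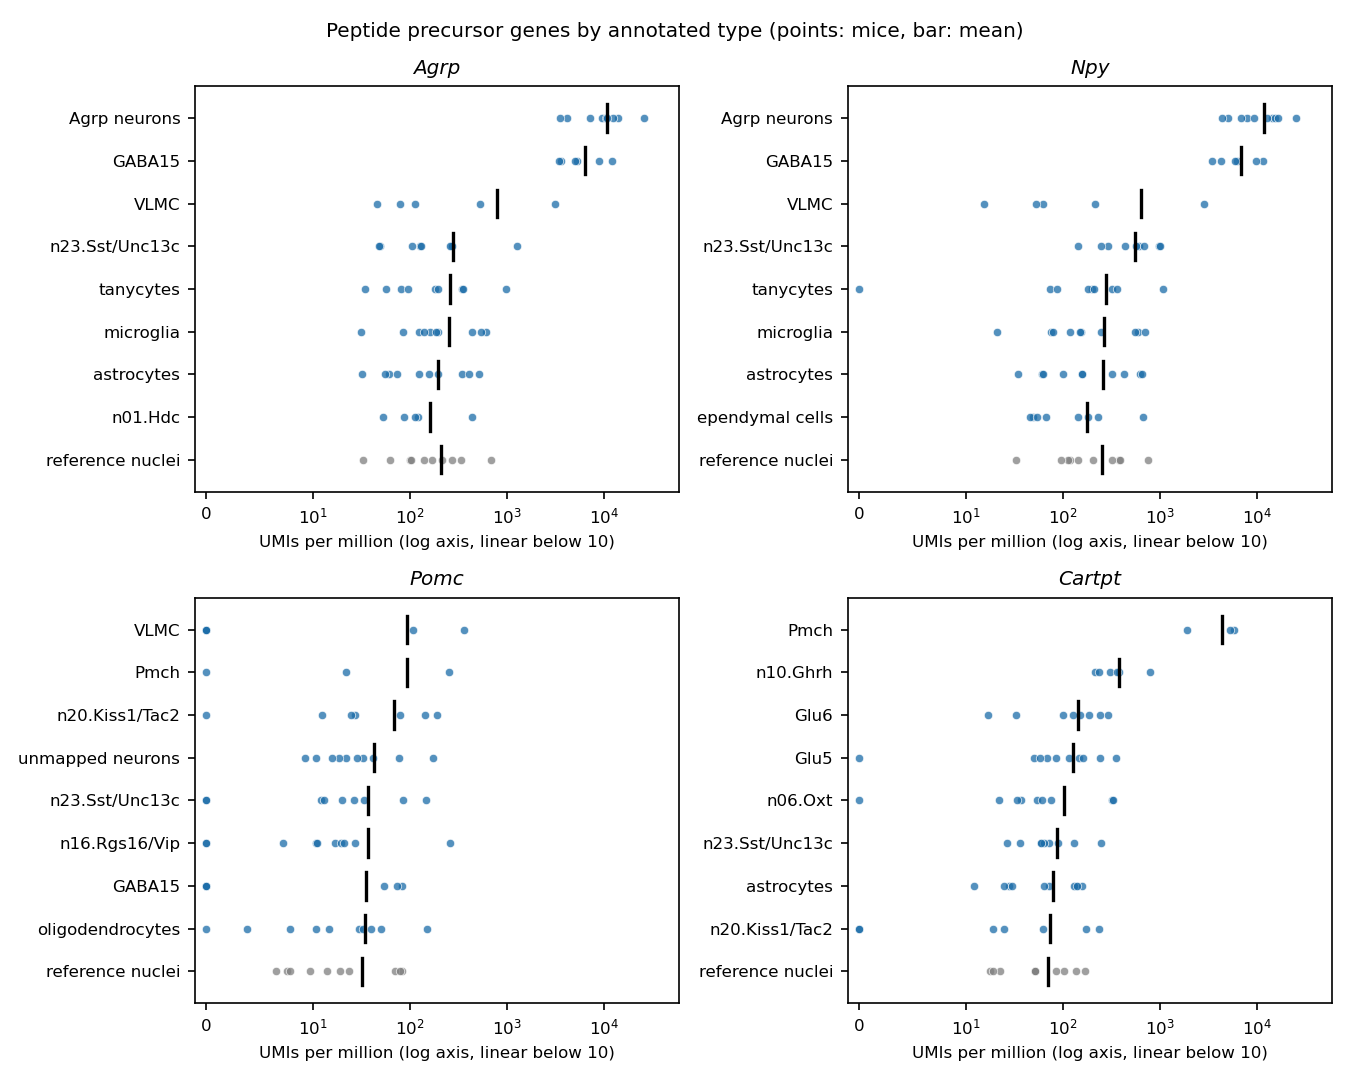
Levels of the 4 peptide genes by annotated cell type, in CPM on an axis that is logarithmic above 10 and linear below. Points are mice with at least 10 nuclei of the type, bars are means, and the 8 types with the highest mean are shown beside the reference nuclei in grey. Among the 29 types with at least 3 such mice, Agrp and Npy stand out in Agrp neurons and GABA15, Cartpt in Pmch neurons, and Pomc in none. The small label n15.Pomc/Anxa2 is not among these types.

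Marker genes in the nuclei with the Agrp neuron label are given as a description, with limits of depth. The label was transferred from expression in these nuclei, so Agrp and Npy in nearly all of them are no check of it. An Agrp UMI was in 99.7% of Agrp neuron nuclei and Npy in 99.4%. Corin, a marker of these neurons, was in 38.1% and Acvr1c in 32.6%, while the ghrelin receptor gene Ghsr had only 2 UMIs in all. The GABA synthesis gene Gad2 was in 37.0% and the vesicular GABA transporter Slc32a1 in 4.11%, beside 6.16% for the glutamate transporter Slc17a6. All 3 VLMC markers were at 0, and the 5 summed astrocyte markers lay between 25.7 and 261 CPM over mice. An Agrp neuron nucleus held a median of 30 Agrp UMIs (quartiles 14 to 47, highest 134) and 29 Npy UMIs (quartiles 16 to 49, highest 152). A GABA15 nucleus held a median of 21 Agrp UMIs and 25 Npy UMIs.

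Agrp and Npy were found in the same nuclei. Of 702 nuclei with at least 5 Agrp UMIs and 773 with at least 5 Npy UMIs, 600 had both, which is 85.5% of the first set and 77.6% of the second. The source types held 470 of the 702 nuclei, unmapped neurons held 117, and glial and vascular types held 84. Because each molecule gives a single 3′ tag whatever its length, the UMIs of both genes were set against each other. Introns were included for nuclei and the annotated span of Agrp overlaps other genes, and equal capture of both genes was not tested. Agrp made up 48.7% of Agrp plus Npy UMIs in Agrp neurons (exact binomial 95% interval 48.0 to 49.3%), 48.1% in GABA15 (47.0 to 49.1%), 49.3% in all other nuclei and 46.2% in the reference nuclei (44.6 to 47.7%). The share in Agrp neurons ran from 39.5% in vehicle Day 5 mouse 38 to 56.1% in FGF1 Day 1 mouse 2. In neurons labelled n23.Sst/Unc13c, a somatostatin class, the share was 36.3% (33.2 to 39.6%) pooled over mice and ran from 6.56% to 56.3% by mouse. FGF1 Day 1 mouse 1 held 196 of the 327 Agrp UMIs of that class, and without it the share was 23.7% (20.2 to 27.5%). The glutamate class Glu5 also had 36.3%. The Npy level of n23.Sst/Unc13c was 554 ± 308 (SD, n = 9) and exceeded the reference in 6 of 9 mice, and only 1 nucleus was shared by their 40 nuclei with at least 5 Npy UMIs and their 17 with at least 5 Agrp UMIs. VLMC ranked next for Agrp by their mean (783 ± 1340, SD, n = 5), which rested on vehicle Day 1 mouse 2 at 3150.

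On Day 1 the levels of Agrp and Npy in Agrp neurons spread widely within both groups. Agrp was at 25690, 10160 and 9487 CPM in FGF1 mice 1, 2 and 3, and at 4155, 14100 and 12340 in vehicle mice 1, 2 and 3. Npy was at 25720, 7954 and 9335 in the FGF1 mice and at 5085, 14250 and 15650 in the vehicle mice. FGF1 mouse 1 was the highest and vehicle mouse 1 the lowest for both genes, and the groups overlapped. By edgeR's quasi-likelihood test with Benjamini-Hochberg adjustment over all genes of the type, the log2 difference, FGF1 minus vehicle, was 0.64 for Agrp (SE 0.53, adjusted p = 0.747) and 0.38 for Npy (SE 0.55, adjusted p = 0.892), and 0.298% of genes were called there. FGF1 mouse 1 decided the sign, since without it the differences were -0.12 and -0.49. Ribosomal protein genes took 2.06% of UMIs in the Agrp neurons of FGF1 mouse 1 and 0.874% in those of vehicle mouse 1, the highest and lowest of the 10 mice, and the part of this in the levels was not tested. In GABA15 the Day 1 levels of Agrp were 12220 and 5295 in 2 FGF1 mice and 3631 and 8809 in 2 vehicle mice, which also overlapped (log2 difference 0.46, SE 0.54, adjusted p = 0.997 by edgeR, with 0.0% of genes called).

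On Day 5 both FGF1 mice had lower Agrp and Npy in Agrp neurons than either vehicle mouse. Agrp was at 3526 and 7138 in FGF1 mice 37 and 45 and at 10530 and 10860 in vehicle mice 28 and 38. Npy was at 4372 and 6817 in the FGF1 mice and at 12940 and 16630 in the vehicle mice. The groups did not overlap for either gene, with every FGF1 mouse below, as held for 16.5% of the 1345 genes tested there. The edgeR log2 difference was -1.06 for Agrp (SE 0.34, unadjusted p = 0.0049, adjusted p = 0.51) and -1.46 for Npy (SE 0.33, unadjusted p = 0.00015, adjusted p = 0.0673), so neither passed the threshold of 0.05, which 0.149% of tested genes did, while 5.8% had an unadjusted p under 0.05. Npy passed it with DESeq2 (adjusted p = 0.0334). It also passed in edgeR with each nucleus thinned to 1000 UMIs (log2 difference -1.32, adjusted p = 0.00414). Leaving out a mouse on this day left a single mouse in its group, so no calls are taken from those fits. Agrp neuron nuclei were few on this day, 12 and 45 in the FGF1 mice and 43 and 14 in the vehicle mice.

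**Figure D2:**
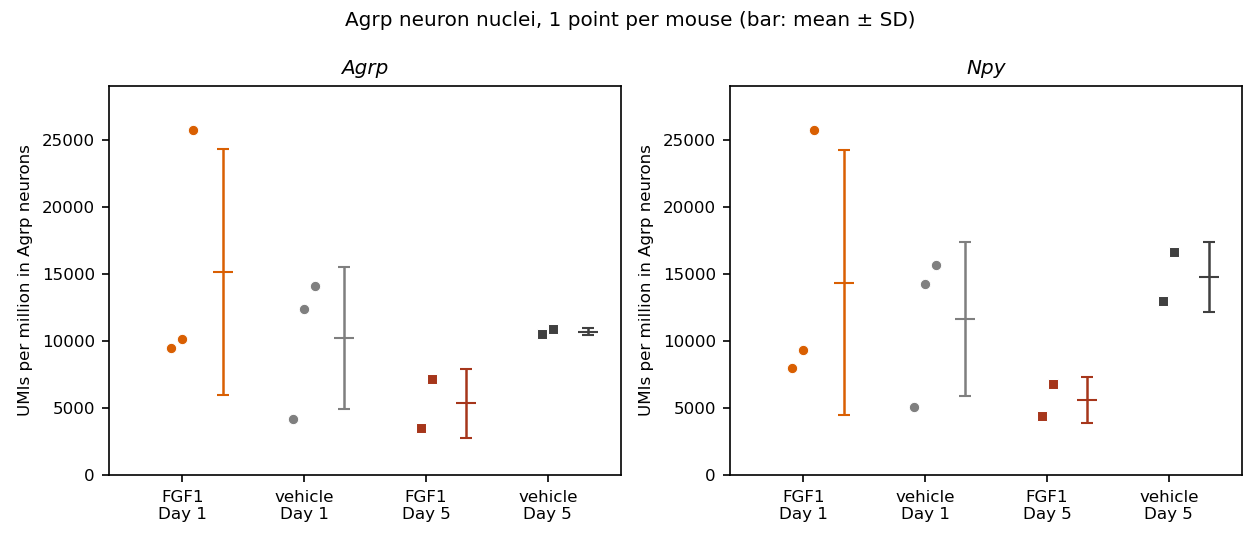
Agrp and Npy in Agrp neurons by group, in CPM. Each point is a mouse and each bar the group mean with its SD (n = 3 and 3 on Day 1, 2 and 2 on Day 5). On Day 5 the FGF1 mice, between 3526 and 7138 for Agrp and 4372 and 6817 for Npy, lie below both vehicle mice, whereas the Day 1 groups overlap.

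Each batch of nuclei named in the deposited metadata, which does not say what the batches were, held 1 FGF1 and 1 vehicle mouse of the same day, which allowed the comparison inside a batch. On Day 5 the log2 ratio of FGF1 to vehicle in Agrp neurons was -1.58 in batch 1 and -0.605 in batch 2 for Agrp, and -1.57 and -1.29 for Npy. On Day 1 it was 1.06, 1.29 and -0.571 in batches 3, 4 and 5 for Agrp and 0.716, 0.645 and -0.61 for Npy. Both Day 5 batches were thus below 0, while the Day 1 batches went both ways. The difference between the days was tested itself, as an interaction contrast in edgeR. It was -1.64 for Agrp (adjusted p = 0.925) and -1.78 for Npy (SE 0.80, unadjusted p = 0.044, adjusted p = 0.922), where 0.0% of genes were called and 5.32% had an unadjusted p under 0.05, so a different response on the 2 days was not shown. Over the 11 types in which a member entered this contrast, 37 tests gave 0 calls (background 0.00784%) and 7 with an unadjusted p under 0.05 (background 4.49%), all 7 below 0.

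Summing Agrp neurons and GABA15 per mouse was an alternative chosen after both had been seen to hold Agrp and Npy. The summed Npy level on Day 5 was 3882 and 4727 in the FGF1 mice and 9873 and 11710 in the vehicle mice. The groups were apart, as for 17.2% of tested genes in that direction, and Npy fell by 1.34 on the log2 scale (SE 0.28, edgeR adjusted p = 0.0312), 1 of 6 genes called among 3460 (0.173%). This call was lost in edgeR without a filter on low counts (adjusted p = 0.199) and with all 4 groups in the same edgeR fit (adjusted p = 0.999). The summed Agrp level was 3571 and 4801 in the FGF1 mice against 8111 and 7738 in the vehicle mice, with a log2 difference of -0.94 (SE 0.28, adjusted p = 0.299), and it passed with batch as a block (-0.96, adjusted p = 0.00167 by edgeR).

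The low level of both genes in the reference nuclei was also lower in both Day 5 FGF1 mice, and on Day 1 it did not follow the order of the mice in Agrp neurons. In those reference nuclei on Day 5, Agrp was at 32.53 and 138.2 CPM in FGF1 mice 37 and 45 and at 211.5 and 268.6 in vehicle mice 28 and 38. Npy there was at 32.53 and 142.1 against 319.3 and 386.5. Both FGF1 mice were again below both vehicle mice. The share of all genes with that order was not computed for the pooled reference nuclei, and in the astrocytes among them it was 18.1%. With reference nuclei of 5 or more UMIs of the gene set aside, Npy was at 32.53 and 90.27 against 188.5 and 128.1, where the intervals of mice 45 (75.7 to 107) and 38 (89.2 to 178) overlapped, and Agrp was at 32.53 and 95.46 against 142.5 and 141.8. On Day 1 the reference nuclei of vehicle mouse 2 were highest (684.9 for Agrp and 762.4 for Npy), with FGF1 mouse 1 next (338.7 and 381.9). With the same nuclei set aside, vehicle mouse 2 dropped to 194.1 and 235.3, below FGF1 mouse 1 at 233.8 and 250.3. With all reference nuclei kept, vehicle mouse 3 was the lowest of the Day 1 mice (62.24 and 94.72) although its Agrp neurons were not. With those nuclei set aside, FGF1 mouse 3 was lowest (51.67 and 41.63). Over all nuclei, mitochondrial genes took the largest Day 1 shares of UMIs in vehicle mouse 2 (0.151%) and FGF1 mouse 1 (0.0905%). On Day 5 they took 0.0436% and 0.0702% in the FGF1 mice and 0.111% and 0.105% in the vehicle mice. The part of this in the reference levels was not tested. In astrocytes on Day 5, Npy was at 34.47 and 156.4 in the FGF1 mice and at 321.8 and 649.9 in the vehicle mice, a log2 difference of -2.27 (SE 0.53, edgeR adjusted p = 0.0593), and Agrp gave -1.58 (adjusted p = 0.189), where 0.625% of genes were called. Other types outside the sources did not all run the same way by mouse on Day 5. Of 28 member tests in annotated types, Agrp and Npy in Agrp neurons included, 26 had a log2 difference below 0. The share of all genes below 0 is not given here. In unmapped neurons, Agrp was at 38.07 and 121.9 CPM in the FGF1 mice and at 103.9 and 139.2 in the vehicle mice, so the groups overlapped. In Glu5, FGF1 mouse 45 was above vehicle mouse 38 for Agrp (75.17 against 64.04) and for Npy (96.78 against 42.7), where mouse 38 had only 3 and 2 UMIs. FGF1 mouse 37 was below vehicle mouse 28 there (34.64 against 83.75 and 95.94 against 163.5), and the edgeR log2 differences were -0.41 and -0.57. In the oligodendrocyte precursors (OPC/COP) the log2 difference was 0.18 for Agrp and -0.48 for Npy. Over the 10 annotated types in which a member was tested on Day 5, 28 member tests gave 0 calls at an adjusted p under 0.05 (background 0.293%) and 11 at an unadjusted p under 0.05 (background 8.69%), all 11 lower with FGF1. The FGF1 mice did not overlap the vehicle mice in 12 of the 28 tests, all lower (background 20.8% lower and 18.0% higher). With batch as a block 3 of these tests were called, Npy in astrocytes among them (-2.62, adjusted p = 0.0131 by edgeR). The share of all genes called with that block is not given here, so the 3 calls have no background. The 28 tests share the same 4 mice. On Day 1, 41 tests in 17 types gave 0 calls (background 1.07%) and 2 with an unadjusted p under 0.05 (background 8.23%), both higher, and the groups stood apart in 2 tests downward (background 8.28%) and 2 upward (background 7.15%). The low levels in types that are not sources and the levels in the source types came from the same libraries, and whether free RNA set those low levels was not tested.

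**Figure D3:**
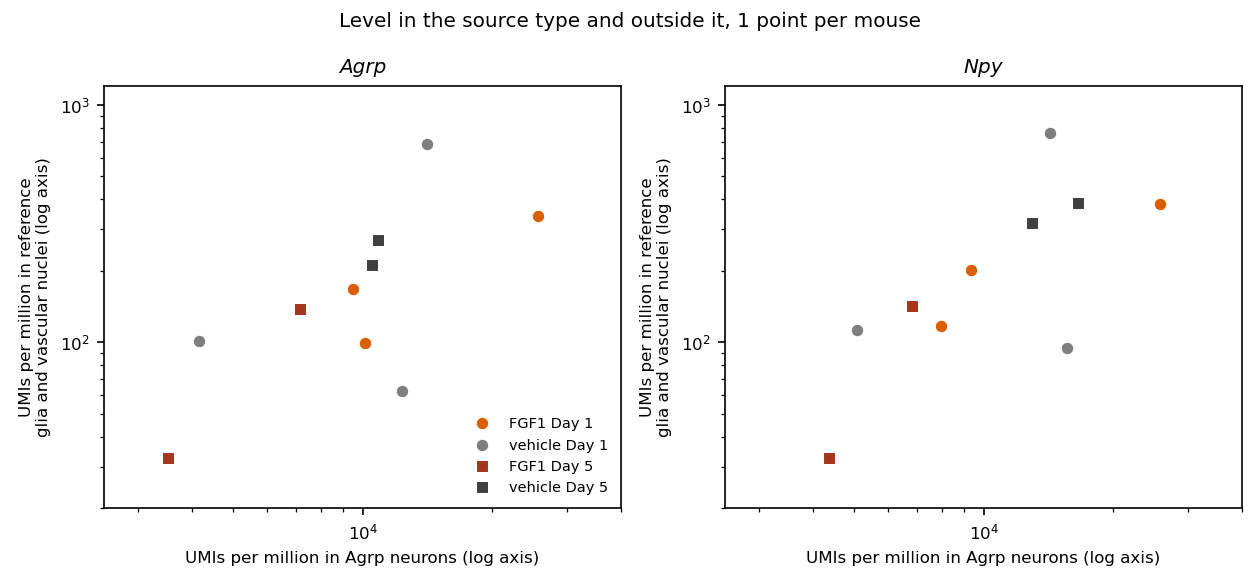
Agrp and Npy in Agrp neurons (x axis) against the reference nuclei of the same mouse (y axis), in CPM on log axes. Each point is a mouse, colored by group. On Day 5 the FGF1 mice lie below and to the left of the vehicle mice for both genes, and the reference nuclei lie below the Agrp neurons in every mouse. In Agrp neurons 16.5% of genes stood apart in that direction, and no such share was computed for the reference nuclei.

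Over all nuclei of a mouse, whatever their label, fewer nuclei of a type and less RNA per nucleus cannot be told apart. Agrp over all nuclei on Day 5 was at 75.24 and 176.6 in the FGF1 mice and at 285.1 and 404.8 in the vehicle mice (edgeR log2 difference -1.35, SE 0.40, adjusted p = 0.499). Npy was at 66.88 and 159.7 against 353.0 and 557.1 (log2 difference -1.90, SE 0.44, adjusted p = 0.499). The groups were apart for both genes, as for 27.8% of the 16864 genes in that direction, and no gene was called over all nuclei on Day 5 (0.0%, with 9.7% at an unadjusted p under 0.05). Ribosomal protein genes took 1.17% and 0.95% of these UMIs in FGF1 mice 37 and 45 and 1.46% and 1.37% in vehicle mice 28 and 38. Mitochondrial genes took 0.0436% and 0.0702% against 0.111% and 0.105%, and the part of this in the levels was not tested. Agrp neurons, out of all deposited nuclei, were 0.541% and 0.78% of nuclei in the Day 5 FGF1 mice and 1.35% and 2.37% in the vehicle mice. These shares, 0.661 ± 0.169% (SD, n = 2) and 1.86 ± 0.719% (SD, n = 2), did not overlap, and the exact two-sided permutation test gave p = 0.333, the smallest that 2 against 2 mice allow. On Day 1 the shares were 1.56 ± 0.331% with FGF1 and 1.8 ± 0.486% with vehicle (SD, n = 3 each, exact permutation p = 0.6, where 0.1 is the smallest possible).

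Pomc was sparse and had no source type among the 29. The annotated nuclei held 3164 Pomc UMIs in 1205 nuclei (4.96%), and unmapped neurons held 61.3% of them, above the reference nuclei in 3 of 10 mice and below in 2. In 250 nuclei there were at least 3 Pomc UMIs, a minimum that sets a range and not a cell type, and 166 of these nuclei were unmapped neurons, 46 glial or vascular and 4 in Agrp neurons or GABA15. The label n15.Pomc/Anxa2 itself was given to 11 nuclei with 111 Pomc UMIs, too few nuclei for at least 10 in each of 3 mice. It was therefore not among the 29, and the rule could not call it a source. At least 5 UMIs of both Agrp and Pomc were in 4 nuclei, out of 702 with 5 Agrp UMIs and 159 with 5 Pomc UMIs. A Cartpt UMI was in 24.7% of the unmapped neurons with at least 3 Pomc UMIs and in 10.5% of those with none, at median depths of 2572 and 2559 UMIs per nucleus. Npy (31.9% and 17.1%) and Agrp (29.5% and 21.0%) were also in a larger share of the first set. By level, Cartpt was at 155.3 CPM in the first set and 62.23 in the second, Npy at 144.6 and 127.3, and Agrp at 99.95 and 138.0. The sets pool mice, and FGF1 Day 1 mouse 1 (106), vehicle Day 1 mouse 2 (54) and vehicle Day 5 mouse 28 (38) held most of the 250 nuclei and had high Cartpt over all nuclei (156.5, 85.83 and 109.3).

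The level of Pomc spread widely over mice. Over all nuclei on Day 1 it was at 123.4, 23.54 and 15.34 CPM in FGF1 mice 1, 2 and 3 and at 20.25, 59.86 and 10.5 in vehicle mice 1, 2 and 3. FGF1 mouse 1 was the highest and the groups overlapped (edgeR log2 difference 0.91, SE 0.89, adjusted p = 0.788), and without that mouse the difference was -0.62. On Day 5 Pomc was at 9.047 and 13.07 in FGF1 mice 37 and 45 and at 42.63 and 14.6 in vehicle mice 28 and 38. The groups were apart, FGF1 lower, by a small gap between mice 45 and 38, as for 27.8% of genes (log2 difference -1.38, SE 0.50, adjusted p = 0.511). The difference was -0.22 without vehicle mouse 28 and -1.90 without vehicle mouse 38, each time with a single vehicle mouse left. In unmapped neurons on Day 5, Pomc was at 10.78 and 15.71 with FGF1 and at 41.75 and 28.21 with vehicle. That difference of -1.37 on the log2 scale had SE 0.28 and an unadjusted p of 0.000537, as 9.95% of 14599 genes had a p under 0.05, and an adjusted p of 0.285 in edgeR, with 0.0% of genes called and 28.1% apart in that direction.

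The share of nuclei with at least 3 Pomc UMIs was 1.16 ± 0.9% with FGF1 and 1.13 ± 1.19% with vehicle on Day 1 (SD, n = 3 each, exact permutation p = 1.0). On Day 5 the share was 0.127 ± 0.0497% with FGF1 and 0.962 ± 0.386% with vehicle (SD, n = 2 each, exact permutation p = 0.333, the smallest possible). Both FGF1 mice, with 2 of 2183 and 9 of 5558 nuclei, were below both vehicle mice, with 38 of 3077 and 4 of 581. How many genes would show that order by such a share of nuclei was not computed. After thinning every nucleus to 1000 UMIs the Day 5 shares were 0.009 ± 0.0127% and 0.26 ± 0.368% and the groups overlapped (SD, n = 2 each, exact permutation p = 1.0).

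**Figure D4:**
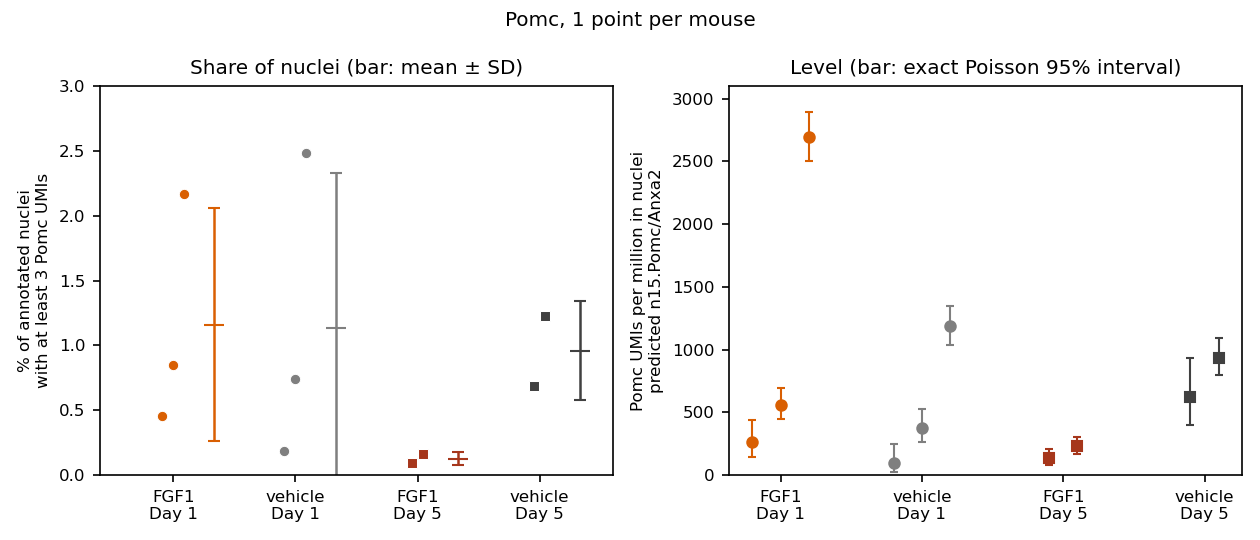
Share of nuclei with at least 3 Pomc UMIs (left, percent, points are mice, bars mean and SD with the lower end cut at 0) and Pomc in nuclei with the predicted class n15.Pomc/Anxa2 (right, CPM, bars exact Poisson 95% intervals of each mouse). On Day 5 both FGF1 mice are below both vehicle mice in both panels, where the right-hand value of vehicle mouse 38 rests on 8 nuclei and 23 UMIs, under the minimum of 10 nuclei used elsewhere, and on Day 1 the groups overlap. By level in unmapped neurons, 28.1% of all genes stand apart in that direction on Day 5, and no such share was computed for either panel. The class was predicted from expression in these nuclei, and the panels share nuclei.

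Cartpt had 1 source type, the neurons labelled Pmch, which make melanin-concentrating hormone. Their Cartpt level was 5792 in FGF1 Day 1 mouse 1, 1918 in FGF1 Day 5 mouse 45 and 5329 in vehicle Day 5 mouse 28, the 3 mice with at least 10 such nuclei, and the mean was 4350 ± 2120 (SD, n = 3). With 1 mouse per group or none, FGF1 and vehicle could not be compared there. These 79 nuclei held 17.3% of all Cartpt UMIs. Neurons labelled n10.Ghrh, which make growth hormone-releasing hormone, followed at 380 ± 209 (SD, n = 6) and were above the reference in 5 of 6 mice, and the glutamate class Glu5 was above it in 6 of 10. Agrp neurons had 47.46 Cartpt CPM and GABA15 31.3, pooled over mice.

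In Glu5 neurons the Day 1 groups stood apart for Cartpt. It was at 351.8, 146.5 and 159.5 in FGF1 mice 1, 2 and 3 and at 49.78, 68.83 and 57.88 in vehicle mice 1, 2 and 3. All 3 FGF1 mice were above all 3 vehicle mice, as for 4.26% of the 3783 genes tested, and the edgeR log2 difference was 1.93 (SE 0.45, unadjusted p = 0.00151, adjusted p = 0.873), with no gene of that type called (0.0%) and 4.55% at an unadjusted p under 0.05. Without a filter on low counts its adjusted p in edgeR was 0.00322, and the share of all genes called so is not given here. The vehicle levels in Glu5 rest on 2, 12 and 10 UMIs. Cartpt also stood apart on Day 1, higher with FGF1, in microglia, which were not a source type. That held for 4.86% of genes tested there. The edgeR log2 difference was 1.03 (SE 0.42, unadjusted p = 0.0295, adjusted p = 0.953), and 4.89% of genes had an unadjusted p under 0.05. On Day 5 Glu5 gave 114.6 and 85.5 with FGF1 against 243.3 and 0 with vehicle, so the groups overlapped, and the mouse at 0 had 11 nuclei, which allow up to 64.0 CPM at 3 counts. The difference between the days was -2.73 (SE 0.91, unadjusted p = 0.0106, adjusted p = 1.0 in edgeR), and it turned to 6.21 without vehicle mouse 28. Over all nuclei Cartpt was at 156.5, 67.42 and 56.14 with FGF1 against 27.61, 85.83 and 37.0 with vehicle on Day 1, and at 79.82 and 55.94 against 109.3 and 52.05 on Day 5, with overlap on both days. In astrocytes on Day 5 Cartpt was at 29.55 and 63.39 with FGF1 against 157.3 and 138.3 with vehicle (log2 difference -1.68, SE 0.40, edgeR adjusted p = 0.0574), apart in the direction that held for 18.1% of the genes tested there.

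The receptors were near the limit of detection. Mc3r had 170 UMIs in 164 nuclei (0.675%) and Mc4r 100 UMIs in 97 nuclei (0.399%), and no nucleus held 3 or more of either. Unmapped neurons held 84 of the Mc3r UMIs and 64 of the Mc4r UMIs. Mc3r was highest by mean in Agrp neurons at 8.96 ± 16.1 (SD, n = 10 mice), from 12 UMIs in 2.93% of nuclei, and Mc4r in Glu5 at 2.91 ± 7.77 (SD, n = 10). Neither order of types exceeded the spread over mice. Agrp neurons held 1 Mc4r UMI and GABA15 none.

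Over all nuclei on Day 1, Mc3r was at 4.05, 2.602 and 2.894 CPM in FGF1 mice 1, 2 and 3 and at 1.104, 2.226 and 1.0 in vehicle mice 1, 2 and 3. The FGF1 mice were all above the vehicle mice, as for 6.43% of genes, with a log2 difference of 1.14 (SE 0.45, unadjusted p = 0.035, as 9.83% of genes had one under 0.05, edgeR adjusted p = 0.458). On Day 5 Mc3r was at 1.374 and 1.089 with FGF1 and at 2.374 and 2.621 with vehicle, apart in the other direction as for 27.8% of genes (log2 difference -0.95, SE 0.47, edgeR adjusted p = 0.542). The difference between the days was -2.08 (unadjusted p = 0.00983, edgeR adjusted p = 0.814), in a contrast where 0.00569% of genes were called and 4.99% had an unadjusted p under 0.05. Mc4r over all nuclei lay between 0 and 2.349 CPM over the 10 mice, where 3 UMIs are worth 1.12 CPM in the shallowest mouse. It was too sparse for the Day 1 test, and on Day 5 its log2 difference was 0.70 (SE 0.75, edgeR adjusted p = 0.757). The Day 5 groups were apart for Mc4r with FGF1 higher, as for 14.7% of genes in that direction.

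In whole cells of the second cohort, the peptide genes were present at low levels although the study had removed neurons from them. The neuron gene Snap25 was at 81.2 CPM there and at 954 in the nuclei, and Gad2 at 7.24 and 150. Cartpt had a lowest, median and highest level of 10.2, 20.7 and 29.6 in the 6 FGF1 mice and 21.1, 39.9 and 56.0 in the 6 vehicle mice. The groups overlapped, with means of 20.2 ± 8.42 and 37.4 ± 13.7 (SD, n = 6 each), an exact two-sided permutation p of 0.0238 and an edgeR log2 difference of -0.88 (SE 0.31, adjusted p = 0.0869, 0.0397 in DESeq2). Each of the 6 batches of whole cells held 1 FGF1 and 1 vehicle mouse, and Cartpt was lower with FGF1 in 4 of them (by batch -25.7, 6.72, -25.2, -45.9, 8.56 and -22.1 CPM). Exchanging the groups only within batches gave an exact permutation p of 0.125 for Cartpt, where 0.0312 is the smallest possible, and edgeR with batch as a block gave an adjusted p of 0.198. Npy had 25.7, 33.7 and 58.3 with FGF1 and 43.6, 51.0 and 61.8 with vehicle, which overlapped (means 38.0 ± 13.4 and 51.5 ± 7.13, SD, n = 6 each, exact permutation p = 0.0584, edgeR log2 difference -0.42, adjusted p = 0.182). Agrp had 14.4, 17.4 and 43.9 with FGF1 and 23.8, 31.3 and 33.9 with vehicle, also overlapping (exact permutation p = 0.21, edgeR log2 difference -0.39, adjusted p = 0.374). Pomc had 13.3, 22.5 and 33.2 against 18.5, 22.8 and 25.9 (exact permutation p = 0.872, edgeR log2 difference 0.00, 95% interval -0.40 to 0.41). Of the 4 members tested, 0 were called, where 9.58% of 13723 genes were, and 2 had an unadjusted p under 0.05 (background 25.8%). Some neuron genes were also lower, as Gad1 (edgeR log2 difference -0.81, adjusted p = 0.046), Gad2 (-1.01, adjusted p = 0.0189) and the Agrp neuron marker Acvr1c (-1.15, adjusted p = 0.0308) fell in the same FGF1 mice, while the markers Corin (0.50, adjusted p = 0.307) and Lepr (-0.25, adjusted p = 0.737) did not pass, and the part of this in the peptide levels was not tested. These 3 genes and Mgrn1 (-0.24, adjusted p = 0.0486) were the 4 called among 22 list genes tested in whole cells, and they are named after their values were seen. The same test within batches gave an exact permutation p of 0.375 for Agrp, 0.125 for Npy and 0.906 for Pomc, each lower in 4 of 6 batches. Over the 13 clusters of at least 1000 cells, Agrp ran from 14.3 to 40.3, Npy from 21.7 to 92.0, Pomc from 11.0 to 49.2 and Cartpt from 13.3 to 53.5. Mc3r had 17 UMIs and Mc4r 4 in 54890 cells.

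**Figure D5:**
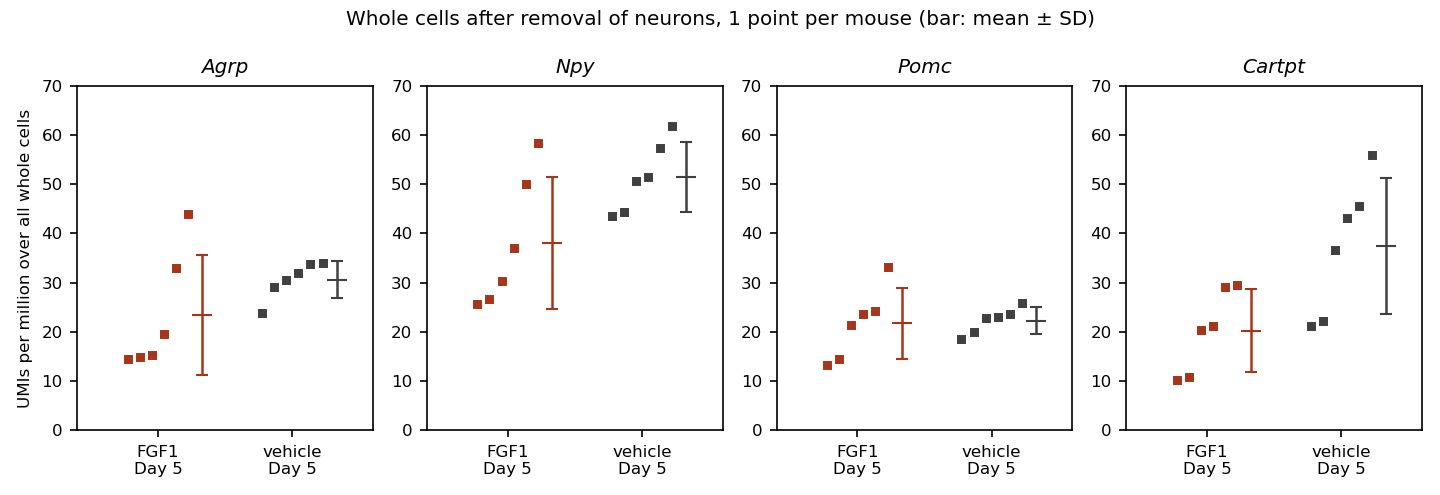
The 4 peptide genes summed over all whole cells on Day 5, in CPM, for 6 FGF1 and 6 vehicle mice. Points are mice and bars the mean with SD. Cartpt is lower on average with FGF1 (20.2 against 37.4) the Pomc means are 21.7 and 22.3, and the groups overlap in every panel.

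Other genes of the pathway were counted from lists of 11 genes on the receptor side, 5 peptide processing enzymes, 9 transcription regulators and 7 Agrp neuron markers. In Agrp neurons none of the 11 list genes tested on Day 1 and none of the 8 tested on Day 5 were called by edgeR. Over all nuclei, 1 of 25 tested list genes was called on Day 1 and 0 of 25 on Day 5, beside 0.288% and 0.0% of all genes. The gene was Stat3, which carries the leptin receptor signal to the nucleus and rose over all nuclei on Day 1 (log2 difference 1.50, SE 0.21, adjusted p = 0.0433 by edgeR). Stat3 in Agrp neurons gave 1.19 (SE 0.38, adjusted p = 0.241) on that day, and over all nuclei on Day 5 0.10 (adjusted p = 0.886), with a difference between the days of -1.41 (adjusted p = 0.501 by edgeR). On Day 1, leaving out any of 5 of the 6 mice in turn left no list gene called, and neither did a batch term. Of the 3 list genes for peptide processing tested in Agrp neurons, all 3 were below 0 on Day 1 with a median of -0.48, and all 3 on Day 5 with a median of -0.11, beside medians of 0.01 and -0.01 over all genes tested. The Agrp neuron markers tested in Agrp neurons had a median of -0.33 on Day 1 and -0.50 on Day 5, with 3 of 4 genes below 0 on each day, and the part of this in the Day 5 levels of Agrp and Npy was not tested. Over all nuclei the median log2 difference of the receptor side was -0.02 on both days, that of peptide processing 0.04 on Day 1 and 0.11 on Day 5, and that of the transcription regulators -0.10 and -0.01. The Agrp neuron markers had medians of -0.18 and -0.36 there, with 5 of 6 tested genes below 0 on Day 1 and 6 of 6 on Day 5, none of them called.

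Across the 29 types, the genes most like each member were found by Pearson's r of log2(CPM + 1) over 17676 genes, a description in which types share libraries. Agrp was nearest to Npy (r = 0.897), Corin (0.799) and Ghr, the growth hormone receptor (0.728). Npy was nearest to Agrp, Corin (0.795) and Rbp4 (0.707). The nearest genes to Pomc were Tmed1 (0.822), Jmjd6 (0.799) and Abhd17c (0.792), and to Cartpt A630073D07Rik (0.795), Rfx8 (0.792) and A230083N12Rik (0.785). For the sparse receptors they were Gm12185 (0.758), Zfp512b (0.742) and Lama1 (0.74) with Mc3r, and 2700089I24Rik (0.856), Gm11846 (0.848) and D830013O20Rik (0.846) with Mc4r.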

How the data were processed

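Nuclei and whole cells had been sequenced by 10x Chromium 3′ chemistry (v2). Per the study's methods, the authors aligned reads with Cell Ranger (1.2 in the submitters' processing notes) to GRCm38, introns included for nuclei, and deposited raw UMI counts per gene and barcode with cell type labels, the fraction that gives the confidence of each predicted label, and the percent of mitochondrial and ribosomal UMIs per whole cell. The study stated limits on genes and on mitochondrial or ribosomal reads per barcode, and 24054 of 24965 deposited nuclei were under its 5% limit. The counts were summed here per mouse and type (at least 10 nuclei, at least 2 mice per group) and tested with edgeR 4.0.16 in R 4.3.3 (filterByExpr, TMM scaling, robust quasi-likelihood fit), with Benjamini-Hochberg adjustment over all genes tested in the type and a threshold of 0.05. Groups came from the sample labels, with 1 mouse per library, and totals per mouse ran from 2670746 to 15604648 UMIs in nuclei and from 2652897 to 11866269 in whole cells, so the precision of sparse genes is limited by counting error. Levels are unscaled CPM, and fold changes come from the TMM-scaled fit.

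The members and lists were chosen with earlier results of these data known. Genes were named if they were members, list genes past the test in Agrp neurons or over all nuclei, cell type markers, or the 3 genes most correlated with a member over types. Alternatives were DESeq2 1.42.0, RLE factors, library totals, no filter on low counts, batch or replicate number as a block, all groups in 1 fit, thinning to 1000 UMIs, the stated quality limits, other reference nuclei, other UMI minimums and leaving out each mouse. Agrp neurons summed with GABA15, nuclei with 5 or more UMIs set aside, ratios within batches, the permutation of whole cells within batches and the n23.Sst/Unc13c ratio and predicted Pomc level without 1 mouse were added after seeing the data. The fits were tested on simulated data drawn from the real means, with a common dispersion for all genes. The changed genes were a random draw of those past the filter, so the rates are not those of Agrp or Npy. In Agrp neurons, a simulated log2 change of 1 was called in 19.8% of genes on Day 1 and 16.9% on Day 5, and a change of 2 in 92.1% and 87.3%. Permutation tests used scipy 1.17.1.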

Additional observations from a re-analysis of the deposited data

Results flagged for a closer look

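The 660 nuclei that the deposited metadata marked as filtered entered no comparison. Agrp stood at 145.1 CPM there (354 UMIs, in 27.3% of nuclei) and Npy at 181.5 (443 UMIs, in 29.8%), against 331.3 and 347.0 over the annotated nuclei. Both lie inside the range of the reference nuclei over mice (32.53 to 684.9 for Agrp and 32.53 to 762.4 for Npy), whose upper ends come from vehicle Day 1 mouse 2 and drop to 194.1 and 235.3 there with nuclei of 5 or more UMIs set aside. Whether free RNA set these levels was not tested. The 490 nuclei with the predicted class n15.Pomc/Anxa2, nearly all left unmapped in the final labels (464), held Pomc at 999.6 CPM, and 43.3% of them had a Pomc UMI. By mouse the level ran from 96.88 to 2693, and without FGF1 Day 1 mouse 1, which held 749 of the 1381 UMIs, it was 572.8. These annotated nuclei entered the sums over all nuclei, and the 464 also those of unmapped neurons, but the predicted class formed no tested group. All 3 values are listed because they lie above the limit that a count of 0 allows.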

How the results depend on the processing

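Values are log2 differences, FGF1 minus vehicle, unless named otherwise, and ranges are the lowest and highest on leaving out 1 mouse. Where a group was left with 1 mouse, it was assumed to vary like the others. On Day 1 the sign of the Agrp, Npy and Pomc differences below rested on single mice. In Agrp neurons, Agrp ran from -0.12 to 0.97 and Npy from -0.49 to 0.67, with -0.571 and -0.61 inside batch 5. In both source types summed, Agrp ran from -0.10 to 1.04 and Npy from -0.38 to 0.71. In GABA15, Agrp ran from -0.39 to 1.31 and Npy from -0.32 to 1.11. Over all nuclei, Agrp ran from -0.49 to 0.78, Npy from -0.80 to 0.51 and Pomc from -0.62 to 1.87. Npy over all nuclei was -0.11 with batch as a block and -0.01 with library totals. Pomc in unmapped neurons ran from -0.34 to 2.44.

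On Day 5, Agrp in Agrp neurons ran from -1.66 to -0.61 (batch 1 alone -1.58) and Npy from -1.82 to -1.13, with -1.46 in DESeq2 and -1.32 thinned. Over all nuclei, Agrp ran from -2.10 to -0.85, Npy from -2.66 to -1.39 and Pomc from -1.90 to -0.22. Cartpt in Glu5 ran from -1.33 to 8.59, and its difference between days from -3.26 to 6.21, both highest without vehicle mouse 28, which left a lone vehicle mouse at 0.

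Member calls in annotated types on Day 1 (0) were 2 without a filter and 0 to 3 on leaving out mice. On Day 5 (0) they were 1 with DESeq2 or RLE, 3 with batch as a block, 2 with library totals, 6 without a filter, 4 thinned and 2 to 8 on leaving out mice. Over all nuclei on Day 5 (0) they were 0 to 2, and for the difference between days (0) 3 without a filter. Pathway calls on Day 1 (1) were 2 with DESeq2, 0 with batch as a block or thinned and 0 to 1 on leaving out mice, and on Day 5 0 to 1. Source types of Cartpt rose from 1 to 2 with nuclei of 5 or more UMIs set aside or a wider reference.

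In whole cells, Cartpt was -0.88 in DESeq2 (1 member call in place of 0, and 0 to 1 on leaving out mice) and ran from -1.05 to -0.73, its mean difference being -17.3 CPM. Npy ran from -0.60 to -0.34. Pomc was -0.06 with batch as a block, -0.05 under the 20% limit, -0.567 CPM by means and -0.16 to 0.10 on leaving out mice. The Agrp neuron share on Day 1 differed by -0.451 to 0.0232 percentage points, and the share with at least 2 Pomc UMIs by -0.122. The cause of these shifts was not tested.

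Replicate numbers did not pair the mice (r between same-numbered mice -0.117, -0.0326 and 0.34). On Day 1, r between mice of the same batch was -0.363, -0.0919 and -0.459. These r values compare deviations from the group mean. On Day 5, with 2 mice per group, the deviations mirror each other, so both batches must give the same r (0.0722). That value therefore cannot show whether mice of a batch were alike. The study's methods describe a strong batch effect among the nuclei samples, and its size was not tested here. With the replicate block on Day 1, Agrp in Agrp neurons was 0.52 and Npy 0.18, Npy over all nuclei -0.14, and pathway calls 0. Day 5 nuclei share no numbers.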
